A study of Arabidopsis thaliana with 6 samples.

Results

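A set of 19 transporter genes of Arabidopsis thaliana, 14 of them of the SWEET sugar carrier family, was followed in flowers of wild type and of plants overexpressing miR159a. They were chosen by gene symbol. The rule took every probe set with 1 gene in the array annotation whose symbol, an AT prefix ignored, starts with SWEET, STP, SUC, PMT, INT, OCT, PUP, UMAMIT, AAP, OPT, NRT, DTX or ABC with a subfamily letter, and then a digit. It found 19 genes among 13513 single-gene probe sets, namely 14 SWEET genes, 3 OCT genes, PUP15 and NRT2.5. Members of the STP, SUC, PMT, INT, UMAMIT, AAP, OPT, DTX and ABC families were not analysed here. The set is therefore one of sugar and organic cation carriers with 1 purine and 1 nitrate carrier, and it holds no amino acid or ABC transporter. The RefSeq gene table names 267 genes by the same rule, 15 of them SWEET and 6 OCT.

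The study profiled total RNA of stage 15 flowers on 6 one-colour arrays. There were 3 arrays of wild-type Columbia flowers and 3 of flowers from transgenics that overexpress miR159a, a microRNA known to act on mRNAs of MYB transcription factors. The sources used here name neither the promoter of the transgene nor the number of transgenic lines or the age of the plants. Replicates in each group are lettered a, b and c. No label ties a letter to separate plants, so the p-values speak for the spread among these 6 samples, which may be technical.

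SWEET proteins are membrane carriers that let sugars move down their gradient, out of or into cells and vacuoles. They fall into clades: those of clades I and II carry mostly hexoses, those of clade III mostly sucrose, and those of clade IV act at the vacuolar membrane. In flowers, SWEET carriers are known for nectar secretion, pollen nutrition and anther opening. OCT proteins are carriers of organic cations such as carnitine.

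Signals are the deposited linear intensities. The median of all probe sets other than controls lay between 85.2 and 97.0 on the arrays. Brightness depends on the probe as well as on the amount of transcript, so a signal places a probe set on its own array and does not rank transcripts by abundance. Log2 fold changes are overexpressor minus wild type on the scale log2(signal + 16), which understates changes of dim probe sets. Adjusted p-values come from limma over all 17059 probe sets tested, with a threshold of 0.05.

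OCT1 and SWEET3 rose in the overexpressor, and no other transporter gene passed the test. Of the 18 members that could be tested, 2 were higher, 0 were lower and 16 did not pass. Over all tested probe sets 0.135% were called higher and 2.17% lower, namely 23 and 370 of 17059. With the replicate letter as a block these were 71 and 570, and the members called were the same 2. The set was drawn up with both rises already known, so this count describes the set and is no independent evidence. At an unadjusted p under 0.05, limma gave 3 members higher (OCT1, SWEET3 and SWEET1) and 1 lower (OCT4). Over all 17059 tested probe sets the same limit gave 521 higher and 978 lower. With the replicate block, SWEET7 and SWEET10 were also under this limit upwards, and SWEET9 and SWEET13 downwards. That fit had 1064 higher and 1358 lower of all tested probe sets at the same limit. The median log2 fold change of the 18 was 0.09, against 0.04 over all tested probe sets, and the median absolute change was 0.31, against 0.15. The members also spread more within groups. Their median SD was 0.27 log2 units in wild type, against 0.21 over all tested probe sets, and 0.24 in the overexpressor, against 0.22. NRT2.5 lay below the filter on dim probe sets and went untested.

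OCT1 (AT1G73220), which encodes a carnitine carrier of the plasma membrane, had the largest rise of the 18. Its signal was 538.9, 511.8 and 419.6 on the wild-type arrays a, b and c, and 1406.0, 1168.2 and 1576.3 on the overexpressor arrays. The lowest overexpressor value lay far above the highest wild-type value. OCT1 rose by 1.46 log2 units (SE 0.18, limma adjusted p = 0.0107, n = 3 per group), which is 2.76-fold with a 95% interval of 2.08 to 3.67. Only 7 of the 17059 tested probe sets, OCT1 included, had a log2 fold change as high. Taken by letter, the difference was 1.36 for a, 1.17 for b and 1.87 for c. The adjusted p was 0.0637 without wild-type replicate b and 0.0536 without both arrays lettered a, with log2 fold changes of 1.50 and 1.52.

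SWEET3 (AT5G53190), a clade I member of the sugar carrier family, read 80.9, 60.5 and 54.7 in wild type. In the overexpressor it read 162.3, 147.6 and 170.2. The groups did not overlap, and the overexpressor arrays lay close together. SWEET3 rose by 1.12 log2 units (SE 0.17, limma adjusted p = 0.0159, n = 3 per group), which is 2.18-fold with a 95% interval of 1.66 to 2.87. Between arrays of the same letter the difference was lowest for a, at 0.88, and highest for c, at 1.40. In wild type its probe set was below the middle of the array, brighter than 41.2% to 46.2% of the others. The fold change depended on the pseudocount, with a log2 value of 1.30 at a pseudocount of 1 and 0.80 at 64. The call was lost without wild-type replicate b (adjusted p = 0.0903), without wild-type replicate c (0.0568), without overexpressor replicate a (0.0535) and without overexpressor replicate c (0.0758), with log2 fold changes of 1.03 to 1.11 in these 4 settings.

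**Figure D1:**
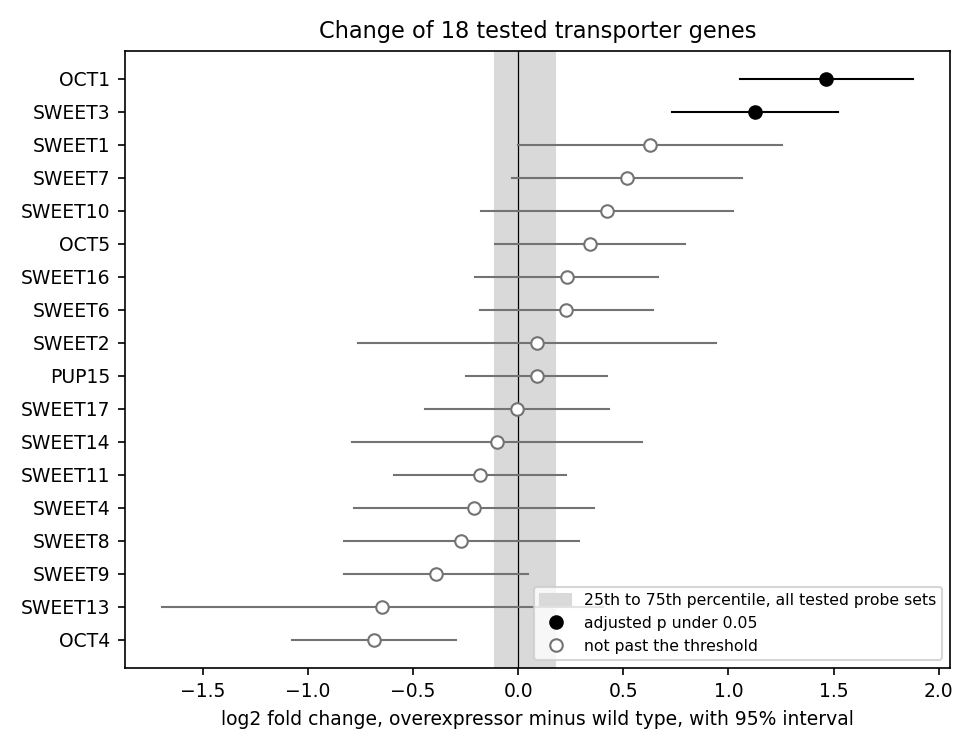
Log2 fold change of the 18 tested transporter genes, overexpressor minus wild type, with the 95% interval of the limma fit (x axis), 1 gene per row. Filled points passed an adjusted p of 0.05; the grey band spans the lower to the upper quartile of all 17059 tested probe sets, from -0.11 to 0.18. OCT1 at 1.46 and SWEET3 at 1.12 stand at the top, and OCT4 at -0.69 is lowest. The unadjusted intervals of OCT1, SWEET3, OCT4 and, barely, SWEET1 exclude 0.

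Most markers of mature pollen and pollen tube fell in the overexpressor samples. Of 14 mature pollen and pollen tube genes with a probe set, out of 17 listed, 11 fell and 0 rose, while 3 missed the threshold. Their summed signal was 2390.4 to 6046.3 on the wild-type arrays and 361.8 to 828.1 on the overexpressor arrays, and 0 of their values were listed at 0. The median log2 fold change of these 14 was -2.05. The marker lists were drawn up with earlier results of these data known, so the values describe the lists and are no independent evidence. The 4 carpel and ovule genes measured, of 7 listed, summed to 482.3 to 578.3 in wild type and to 585.9 to 693.3 in the overexpressor, with none past the test. The 4 green tissue genes measured, of 6 listed, summed to 7600.4 to 11267.6 and to 10123.1 to 14313.7, again with none past it. Neither list had a value at 0. Of 3 sperm cell genes listed, MGH3 was read, and its signal was 24.7 to 79.3 in wild type and 2.2 to 9.3 in the overexpressor. Its mean over all arrays lay below the filter on dim probe sets. In the fit without that filter its log2 fold change was -1.44 (limma adjusted p = 0.143). The floral organ identity genes listed were not analysed here, so the flower label was not checked on them and rests on the sample descriptions. The part of these cells in the rises of OCT1 and SWEET3 was not tested. In whole flowers, fewer cells of a type and less RNA per cell cannot be told apart.

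Of the other OCT genes, neither passed the test. OCT4 (AT3G20660), which encodes a carrier of the vacuolar membrane, read 79.0, 80.4 and 69.9 in wild type and 32.3, 43.0 and 50.2 in the overexpressor. Every overexpressor array lay below every wild-type array. The log2 fold change was -0.69 (95% interval -1.08 to -0.30, unadjusted p = 0.00365 from limma), but the adjusted p was 0.117 and OCT4 did not pass. It was 0.0757 with the replicate block, the lowest of 15 alternatives. OCT5 (AT1G79410), also of the vacuolar membrane, read 62.0, 38.1 and 57.9 in wild type and 79.5, 73.7 and 58.0 in the overexpressor. Those groups overlapped at their edges, and the log2 fold change was 0.34 (adjusted p = 0.755). Of the 18 members, OCT1, SWEET3 and OCT4 were the ones whose groups did not overlap. Over all tested probe sets 7.46% had every overexpressor array above every wild-type array and 7.2% had every one below, against 2 and 1 of the 18 members.

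**Figure D2:**
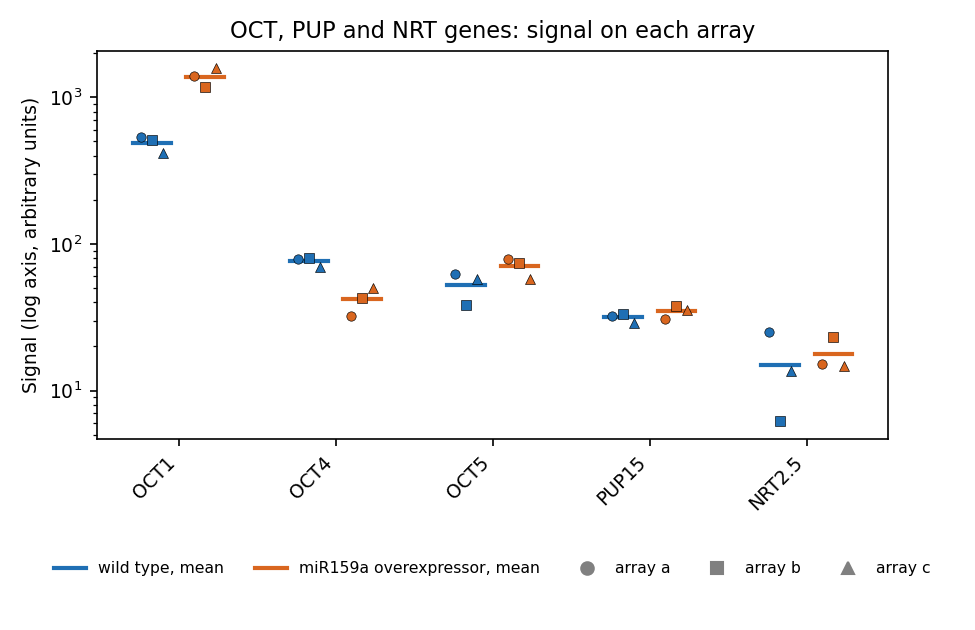
Signal of the OCT, PUP and NRT genes on each of the 6 arrays (y axis, log scale, arbitrary units). Blue is wild type and orange the overexpressor; the symbol gives the replicate letter and the bar the mean of 3 arrays. OCT1 lies between 419.6 and 538.9 in wild type and between 1168.2 and 1576.3 in the overexpressor, OCT4 is lower on all 3 overexpressor arrays, and the other genes overlap.

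Clade I of the SWEET family held the rise of SWEET3 and, with it, SWEET1 and SWEET2, both uncalled. SWEET1 (AT1G21460), a glucose carrier, was among the brightest members, with 1574.7, 1368.0 and 1887.2 in wild type. On the overexpressor arrays it read 1660.0, 2666.8 and 3418.7. The b and c arrays of the overexpressor exceeded all wild-type values, while array a lay within their range. The log2 fold change was 0.63 (95% interval 0.00 to 1.25, adjusted p = 0.568), and the difference was 0.08 for the letter a, 0.95 for b and 0.85 for c. Leaving out both arrays lettered a gave 0.90 with an adjusted p of 0.190, and leaving out overexpressor replicate c gave 0.40 with an adjusted p of 0.998. SWEET2 (AT3G14770), a carrier of the vacuolar membrane known from roots, read 130.9, 68.1 and 52.0 in wild type and 143.9, 55.0 and 73.2 in the overexpressor. The arrays lettered a were high in both groups, by 0.96 and 1.01 log2 units over the mean of b and c. These differences were far larger than the one between the groups, a log2 fold change of 0.09.

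Clade II held 4 members, of which none passed. SWEET4 (AT3G28007), a hexose carrier, was bright in every sample, with 1936.9, 988.6 and 1446.7 in wild type and 1311.4, 1258.1 and 1081.0 in the overexpressor. The overexpressor arrays all fell inside the wild-type range, with a log2 fold change of -0.21 (95% interval -0.78 to 0.36). SWEET8 (AT5G40260), also known as RPG1, is needed for the pollen wall and for pollen to survive. Its signal was 141.8, 96.3 and 163.0 in wild type and 76.7, 119.8 and 127.5 in the overexpressor. The groups overlapped, and the log2 fold change of -0.27 (95% interval -0.83 to 0.29, adjusted p = 0.909) stood beside the median of -2.05 for the mature pollen genes. AMS and AT5G07230, the measured genes of the list for the tapetum, the tissue that feeds developing pollen, were dim in both groups, with summed signals of 9.5 to 20.0 in wild type and 8.3 to 14.3 in the overexpressor. SWEET7 (AT4G10850) read 51.6, 45.8 and 29.0 in wild type and 85.4, 46.3 and 71.5 in the overexpressor, a log2 fold change of 0.52 (95% interval -0.03 to 1.07, adjusted p = 0.615). The difference was 0.58 for the letter a, 0.01 for b and 0.96 for c. SWEET6 (AT1G66770) was dim, at 13.7 to 27.4 in wild type and 24.9 to 28.3 in the overexpressor.

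**Figure D3:**
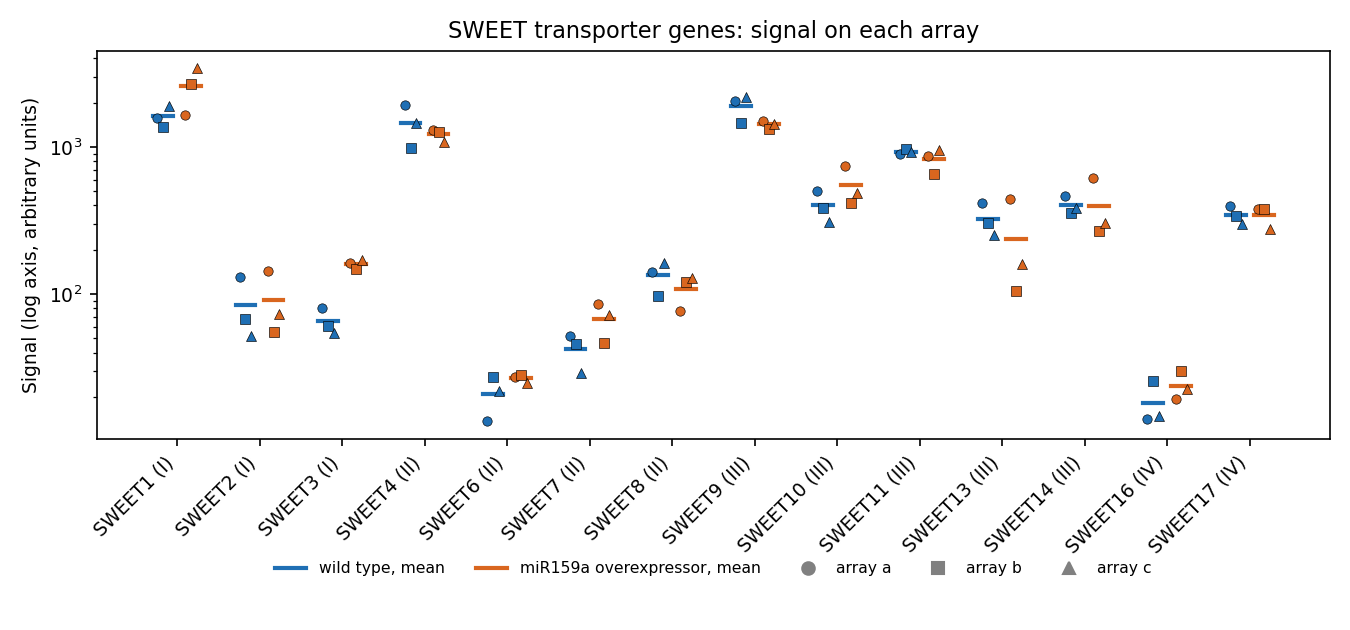
Signal of the 14 SWEET genes on each of the 6 arrays (y axis, log scale, arbitrary units), ordered by number with the clade in brackets. Blue is wild type and orange the overexpressor; the symbol gives the replicate letter and the bar the mean of 3 arrays. SWEET1, SWEET4 and SWEET9 have the highest wild-type means, SWEET6 and SWEET16 lie near the floor, and SWEET3 is the gene whose groups do not overlap.

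All 5 clade III genes, the sucrose carriers, were above the median of the array in every wild-type sample, with mean signals from 325 to 1898, and none passed the test. SWEET9 (AT2G39060), which exports sucrose from nectaries, was the brightest of the 19 probe sets in wild type. It read 2038.0, 1459.7 and 2195.9 there and 1505.6, 1322.9 and 1440.1 in the overexpressor. The difference ran downwards for all 3 letters (-0.43, -0.14 and -0.60), but the groups overlapped between the lowest wild-type and the highest overexpressor array. The log2 fold change was -0.39 (95% interval -0.83 to 0.05, adjusted p = 0.653). With the replicate block the interval was -0.74 to -0.04, still uncalled (limma adjusted p = 0.291). Of the nectary list, CRC and CWINV4 were not analysed here, so SWEET9 stands alone for that tissue. SWEET11 (AT3G48740), which passes sucrose to the phloem, read 896.9, 960.5 and 929.7 in wild type, the tightest spread of any member (SD 0.05 log2 units), and 865.7, 657.7 and 956.9 in the overexpressor. The change of SWEET11 came to -0.18 log2 units (95% interval -0.59 to 0.23).

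SWEET13 and SWEET14, which act together in anthers, also carry gibberellin. SWEET13 (AT5G50800) read 418.1, 306.1 and 250.3 in wild type and 443.4, 105.1 and 159.0 in the overexpressor. SWEET14 (AT4G25010) read 464.2, 353.1 and 386.9 in wild type and 616.9, 268.9 and 305.6 in the overexpressor. For both genes the overexpressor arrays b and c lay below all wild-type arrays and array a above them. The log2 fold changes over all arrays were -0.65 (95% interval -1.69 to 0.40, adjusted p = 0.836) for SWEET13 and -0.10 (95% interval -0.79 to 0.59) for SWEET14. Without both arrays lettered a they were -1.01 (adjusted p = 0.148) and -0.35 (adjusted p = 0.597), and without overexpressor replicate b they were -0.24 and 0.12. SWEET13 had the largest spread between overexpressor arrays of any tested member, 0.99 log2 units. SWEET10 (AT5G50790) is the immediate neighbour of SWEET13 in the RefSeq gene order, with 0 protein-coding genes between them, and is switched on at the shoot apex by the flowering signal. It read 503.7, 386.0 and 309.7 in wild type and 740.7, 413.9 and 487.7 in the overexpressor. Its difference was above 0 for every letter (0.54, 0.10 and 0.63), unlike that of its neighbour, with a log2 fold change of 0.42 (95% interval -0.18 to 1.02, adjusted p = 0.784). Whether probe sets of such close relatives read only their own transcript was not tested.

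Clade IV held 2 members, and neither passed. SWEET17 (AT4G15920), a fructose carrier of the vacuolar membrane, read 396.7, 338.0 and 299.9 in wild type and 379.5, 381.1 and 274.6 in the overexpressor. The group means were 345 ± 48.8 and 345 ± 61.0 (SD, n = 3), with a log2 fold change of -0.01 and a 95% interval of -0.44 to 0.43. SWEET16 (AT3G16690), its relative at the same membrane, was dim, at 14.2 to 25.5 in wild type and 19.3 to 29.8 in the overexpressor. The log2 fold change of 0.23 rests on signals near the pseudocount, where changes are understated. PUP15 (AT1G75470), of the purine permease family, read 32.4, 33.5 and 29.0 against 30.6, 37.8 and 35.7, a log2 fold change of 0.09 (95% interval -0.25 to 0.42). NRT2.5 (AT1G12940), a high-affinity nitrate carrier of nitrogen-starved plants, read 24.9, 6.2 and 13.7 in wild type and 15.1, 23.3 and 14.7 in the overexpressor. These values lie at the bottom of the array and overlap.

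The 95% interval of the fit without the replicate block shows what that fit could resolve for the 16 uncalled members. For 11 of them it lay within 1 log2 unit of 0 on either side. That bound holds on the log2(signal + 16) scale, which understates changes of dim members such as SWEET6, SWEET16 and PUP15. At a pseudocount of 1 the intervals of SWEET2 (-0.94 to 1.15) and SWEET16 (-0.24 to 1.05) reached beyond it. For the other 5, namely SWEET1, SWEET7, SWEET10, SWEET13 and OCT4, the interval at the pseudocount of 16 reached beyond, so a change of that size was not resolved there. With the replicate block, the intervals of SWEET7 (0.06 to 0.98) and SWEET10 (0.05 to 0.79) lay within 1 log2 unit of 0, both still uncalled. Those of SWEET1 (0.16 to 1.09), SWEET13 (-1.27 to -0.02) and OCT4 (-1.06 to -0.31) reached beyond in that fit too. These intervals are not adjusted for the number of genes.

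Several members differed between replicate letters as much as between wild type and overexpressor. The labels do not say what a letter marks. Of the 18 tested members, 7, or 38.9%, read highest on array a in both groups, against 25.6% of all tested probe sets. They were SWEET2, SWEET4, SWEET7, SWEET10, SWEET13, SWEET14 and OCT5, and SWEET16 read lowest on array a in both groups. The arrays lettered a also differed in signs of RNA quality. The ratio of the 5' to the 3' control signal of ubiquitin was 0.628 and 0.736 on the a arrays and 0.275 to 0.380 on the others, and that of GAPDH 1.05 and 1.17 against 0.638 to 0.974. For actin the ratios were 0.0969 and 0.102 against 0.0667 to 0.0966. Marker sums differed by letter too. The mature pollen sum was 6046.3, 3399.3 and 2390.4 on wild-type arrays a, b and c, and 443.5, 828.1 and 361.8 on the overexpressor arrays. The green tissue sum was lowest on array a in both groups, at 7600.4 in wild type and 10123.1 in the overexpressor. The part of RNA quality or of these cells in the member values was not tested. OCT1 and SWEET3 read highest on array a in wild type, by 0.21 and 0.40 log2 units over the mean of b and c, and not in the overexpressor. In all, 10 of the 18 differed the same way for all 3 letters, 8 upwards and 2 downwards, which is 55.6% against 37.0% of all tested probe sets.

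**Figure D4:**
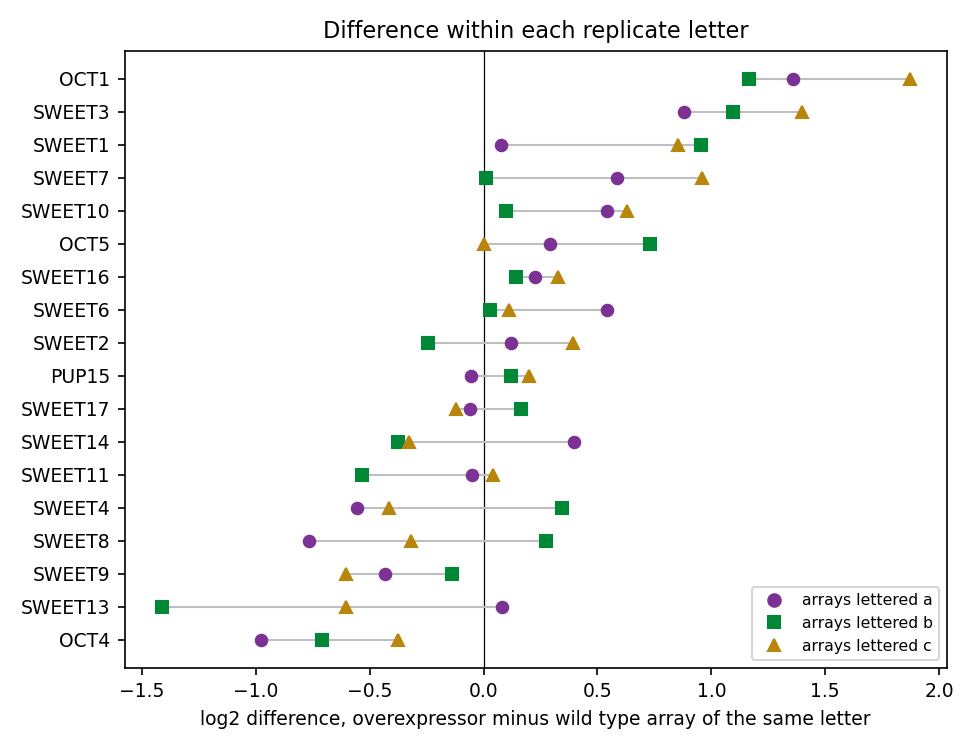
Difference between the overexpressor and the wild-type array of the same letter, on the log2(signal + 16) scale (x axis), for the 18 tested members (rows, ordered by log2 fold change). The symbol gives the letter. OCT1 runs from 1.17 to 1.87 and SWEET3 from 0.88 to 1.40, while SWEET13 runs from -1.41 at b to 0.08 at a.

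Other genes of sugar and nitrogen transport, outside the rule, were read from 61 listed genes of which 9 had a named probe set. None of the 9 passed the test in either direction, and 0 had an unadjusted p under 0.05 in limma. Their log2 fold changes ran from -0.20 to 0.29 with a median of 0.07, and all 9 intervals lay within 1 log2 unit of 0. The vacuolar sugar importer genes TMT2 and TMT3 had log2 fold changes of 0.29 (adjusted p = 0.845) and -0.20 (adjusted p = 0.924), and TMT1, their relative, -0.05. SFP1 and SFP2, neighbouring genes of another sugar carrier family, had -0.11 and 0.12. In the list for sucrose cleavage and hexose phosphorylation, AT1G62660 had 0.07 and cwINV6, of the cell wall invertase family, -0.06. In the list of other amino acid carriers, AT1G47670 had 0.27 (adjusted p = 0.821). AT1G08230, of the same list, read 98.1, 89.7 and 84.4 in wild type and 112.8, 104.3 and 110.4 in the overexpressor, without overlap, at a log2 fold change of 0.23 (adjusted p = 0.784). The ammonium, peptide and nucleoside transporters listed were not analysed here.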

How the data were processed

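The authors deposited 1 intensity per probe set and array, on a linear scale, for 22810 probe sets and 6 arrays. For the software and normalisation behind these intensities, nothing is given in the sources used here. After trimming 2% at each end, the mean was 200.0 on every array, so the values had been scaled. They were used without further normalisation. Control probe sets (64) were dropped, as were the dimmest 25% of the rest by mean log2 signal (5687). For the other 17059, log2(signal + 16) was fitted by limma (version 3.58.1, functions lmFit and eBayes) under R 4.3.3. The test was two-sided and p-values were adjusted by Benjamini-Hochberg. The fit was tested on simulated data. The number of arrays limits the precision.

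Probe sets were named from a platform annotation of 2016, and all 19 members matched a locus of the RefSeq table of TAIR10.1. No source used here names the build of the array, and no coordinates are printed. The rule for names took every called member, SWEET3 and OCT1, all members of the SWEET and OCT families and the brightest and lowest-p members of the others, which covers all 19. In the pathway lists it took called members and the 2 with the smallest p; the others named there were added after their values were seen. The members and lists were chosen with earlier results of these data known.

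To check pairing, the correlation over probe sets between same-letter arrays was taken after removing group means. It was 0.57, 0.36 and 0.38 for the letters a, b and c. The highest correlation across groups with an array of another letter was -0.33, 0.10 and 0.10. The letters were therefore treated as pairs in the fit with a block, an alternative to the main fit, which had none. The other settings tried were an intensity trend, array weights, that block, median centring or quantile normalisation, a pseudocount of 1 or 64, dropping no probe sets or the dimmest 50%, leaving out every single array, and leaving out the pair lettered a.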

Additional observations from a re-analysis of the deposited data

How the results depend on the processing

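No member was called lower under any of the 16 alternatives. OCT1 was past the threshold in 14 of them, with log2 fold changes from 1.36 to 1.58 and adjusted p from 0.00457 to 0.0637. SWEET3 was past it in 12, with log2 fold changes from 0.80 to 1.30 and adjusted p from 0.00639 to 0.0903. No other member passed in any. The count of members higher, 2 on all arrays, was 1 without both arrays lettered a and ran from 0 (without wild-type replicate b) to 2 with 1 array left out. It was 1 without wild-type replicate c, overexpressor replicate a or overexpressor replicate c. Without wild-type replicate b, 0 of all 17059 probe sets were called higher and 30 lower, against 345 higher at an unadjusted p under 0.05 in limma. The replicate block kept both calls, with adjusted p of 0.00457 for OCT1 and 0.00782 for SWEET3, and changed no call of a member. The median log2 fold change of the members, 0.09, was 0.16 with quantile normalisation, 0.13 with median centring, 0.12 and 0.053 with pseudocounts of 1 and 64, 0.11 with array weights, 0.073 without both arrays lettered a, and -0.10 where the dimmest 50% were dropped and 11 members were tested. With 1 array left out it ran from -0.024 to 0.16. Uncalled members near 0 changed sign in some alternatives, namely SWEET17 in 4, SWEET14 in 3, SWEET2 in 2 and SWEET4 in 1. Fewer arrays or probe sets enter some of these fits; otherwise the cause was not tested. Dim members (SWEET6, SWEET16, PUP15 and NRT2.5) are limited by the floor of the signal scale.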
